A study of Bos taurus with 31 samples.

Results

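The calcium channel genes *TPCN1*, *TPCN2*, *ORAI1*, *ORAI2*, *ORAI3*, *STIM1*, *STIM2*, *MCOLN1*, *ITPR1* and *ITPR2* were examined in liver biopsies of lactating German Holstein cows. They were found by gene symbol in the deposited table of raw read counts, which held all 10 of them among 24616 genes, and all 10 reached the minimum of 20 reads summed over the cows. Messenger RNA from 31 cows was sequenced, with 1 library per cow, in a factorial feeding trial with 8 cows in CONHC, 8 in CONLC, 8 in GLYHC and 7 in GLYLC. GLY cows were fed a total mixed ration in which peas, wheat grain and straw carried residues of a glyphosate herbicide formulation, and CON cows were fed the control ration. According to the paper, the control ration also carried background residues of glyphosate, at a far lower intake. HC and LC stand for a high and a low concentrate feed proportion (CFP). All cows were lactating, and the RNA came from biopsies taken at the end of the feeding period.

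Calcium channels of internal stores and of the plasma membrane work as a relay. Hormones that activate phospholipase C raise inositol trisphosphate, which opens the receptors encoded by *ITPR1* and *ITPR2* and releases calcium from the endoplasmic reticulum. The proteins STIM1 and STIM2 sense the emptied reticulum and open the ORAI channels of the plasma membrane, a process called store-operated calcium entry. *TPCN1*, *TPCN2* and *MCOLN1* encode cation channels of endosomes and lysosomes. In hepatocytes such calcium signals take part in the control of glucose output and bile secretion, and ORAI channels are also well known from immune cells.

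*ORAI2* and *TPCN2* were selected on their measured values in these libraries, *ORAI2* by its difference between GLYHC and GLYLC and *TPCN2* by its difference between GLYHC and CONHC. These values, and others that contain the same groups, are given below as a description without a test. For *ORAI2* this leaves CONHC against CONLC to test, and for *TPCN2* GLYLC against CONLC. The paper had already reported both genes as differentially expressed. It listed *ORAI2* among the genes most induced in HC groups outside the enriched pathways, and *TPCN2* as higher in GLYHC than in CONHC. The other 8 genes belong to the same channel families or to their partners, and whether their own values had a part in the choice is not known.

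*TPCN2* is the only one of the 10 genes for which the study designed primers for qRT-PCR. They are shown because the paper followed this gene by qRT-PCR as well. Whether they match the transcripts counted in the sequencing was not checked. In its results the paper reports a qRT-PCR difference of the same direction between GLYHC and CONHC that was not significant. Its discussion, in contrast, counts *TPCN2* among the genes whose change in GLYHC had statistical backing by qRT-PCR. The primers were not used here. Their sequences are written 5′ to 3′ without capitals.
TPCN2 forward: cactgtgtttgggatgctgc
TPCN2 reverse: aagaagatggcgtaggctcg

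The libraries held from 11675775 to 36675542 reads on genes. All 8 hepatocyte marker genes looked at were present. In 2 libraries a marker list other than that of hepatocytes stood apart. The summed level of 6 intestinal epithelium markers was 7971 normalized counts in GLYLC cow 912 and at most 1677 in another cow, and that of 6 stellate cell and fibroblast markers was 44960 in CONLC cow 103 and at most 9518 in another cow. Normalized counts are reads scaled by TMM factors to the mean library. Differences between groups are log2 fold changes from edgeR's quasi-likelihood test over 15916 genes, with the Benjamini-Hochberg adjusted p over all of them, and "called" stands for an adjusted p under 0.1 together with an unadjusted p under 0.05.

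In the pairwise comparisons 0 of the 10 channel genes were called by edgeR. Between CONHC and CONLC, 1 of the 10 had an unadjusted p under 0.05, as had 5.96% of all genes tested, and 0% of all genes were called. Between GLYHC and GLYLC the unadjusted p was under 0.05 for 4 of the 10 and for 12.5% of all genes, with 0.201% called, where *ORAI2* and *TPCN2* are among the 4 and nothing is read from their number. It was under 0.05 for 1 of the 10 (*TPCN2*, selected on this difference) and 2.92% of all genes between GLYHC and CONHC, and for 0 of the 10 and 5.65% of all genes between GLYLC and CONLC, where 0% and 0.0628% of all genes were called. DESeq2, fitted to only the compared groups, called *ORAI2* between GLYHC and GLYLC and *TPCN2* between GLYHC and CONHC, the values on which these genes were selected, and 0 of the 10 in the other comparisons. The median log2 fold change over the 10 genes was 0.01 for CONHC versus CONLC and 0.20 for GLYHC versus GLYLC. It was 0.07 for GLYHC versus CONHC and -0.09 for GLYLC versus CONLC, and over all genes it lay between -0.01 and 0.01. These medians include *ORAI2* and *TPCN2*, also in the comparisons on which these genes were selected. They were not computed without these genes, or without the GLYLC cow that stood apart in intestinal markers. No shift of the 10 genes as a set is therefore read from them.

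**Figure D1:**
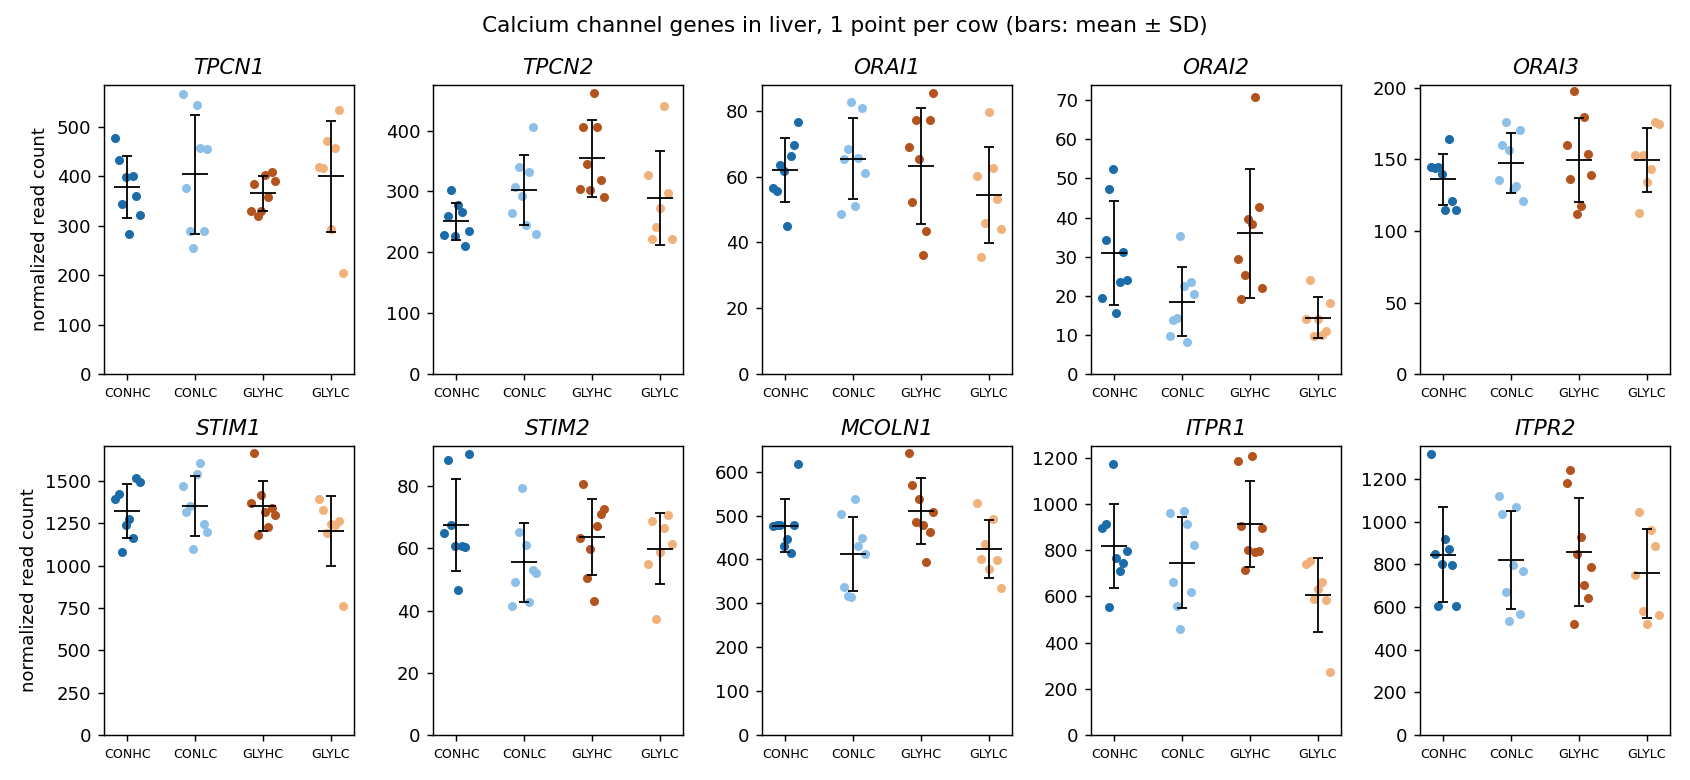
Normalized read count (vertical axes, starting at 0) of each of the 10 channel genes in each cow (points) of the 4 feeding groups, with the mean and SD as bars. For *ORAI2* the means are higher in the HC groups (30.9 and 36.0) than in the LC groups (18.4 and 14.4), and the cows overlap. The GLY pair is the one on which *ORAI2* was selected. For *TPCN1*, *ORAI1*, *ORAI3* and *ITPR2* the groups overlap widely.

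*ORAI2* (ENSBTAG00000012050), a pore subunit of store-operated entry, had a higher mean in the HC group under both treatments. In the CON cows, which had no part in its choice, it had a lowest, median and highest value of 15.5, 27.6 and 52.5 normalized counts in CONHC and 8.19, 17.3 and 35.2 in CONLC. The groups overlapped, with 7 of 8 CONHC cows above the median of CONLC and 2 above its highest cow. The mean was 30.9 ± 13.2 in CONHC and 18.4 ± 8.83 in CONLC (SD, n = 8 each). The log2 fold change was 0.72 (standard error 0.30, 95% interval 0.11 to 1.33, unadjusted p = 0.0216, edgeR adjusted p = 0.763), so the difference did not pass the threshold over all genes. Leaving out 1 cow gave log2 fold changes from 0.57 without CONHC cow 133 to 0.92 without CONLC cow 166, and 0.67 without CONLC cow 103. In bulk tissue, fewer cells of a type and less RNA per cell cannot be told apart.

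In the GLY cows *ORAI2* ranged over 19.3, 33.9 and 70.8 normalized counts (lowest, median, highest) in GLYHC and over 9.63, 14.1 and 24.0 in GLYLC. Of the 8 GLYHC cows, 6 lay above the highest GLYLC cow, and 6 of 7 GLYLC cows lay below the lowest GLYHC cow. The log2 fold change of 1.29 (standard error 0.31) is the value on which the gene was selected. It was 1.11 without GLYHC cow 152 and 1.35 without GLYLC cow 912. Cow 152, the highest of all cows, had 39 reads of *ORAI2* in one of the smallest libraries. The whole range over the 31 cows was 5 to 65 reads with a median of 21, the fewest of the 10 genes, so counting error weighs most on this gene.

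Between GLY and CON cows the fitted differences of *ORAI2* were smaller than their standard errors or close to them. The log2 fold change was 0.21 between GLYHC and CONHC (standard error 0.29) and -0.37 between GLYLC and CONLC (standard error 0.31). The former was 0.016 without GLYHC cow 152 and 0.36 without CONHC cow 133, and the latter was -0.16 without CONLC cow 166. The interaction of GLY with CFP was 0.57 (standard error 0.43). Averaged over both treatments, HC exceeded LC by a log2 fold change of 0.997 (standard error 0.22). Each of these values rests in part on the cows on which the gene was selected.

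The other pore genes of the family did not pass the threshold in a pairwise comparison. *ORAI1* (ENSBTAG00000004457), the main pore of immune cells, had means of 61.9 ± 9.68 normalized counts in CONHC, 65.4 ± 12.2 in CONLC and 63.3 ± 17.6 in GLYHC (SD, n = 8 each) and 54.4 ± 14.6 in GLYLC (SD, n = 7). *ORAI3* (ENSBTAG00000002344), which forms pores of store-operated and related entry, lay between 136 ± 17.7 in CONHC and 150 ± 29.5 in GLYHC (SD, n = 8 each). The log2 fold changes of *ORAI1* and *ORAI3* were between -0.26 and 0.22 in the pairwise comparisons, and 0 of their 8 unadjusted edgeR p-values were under 0.05. For *ORAI3* between GLYHC and GLYLC the 95% interval was -0.25 to 0.24.

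As a share of the reads of *ORAI1*, *ORAI2* and *ORAI3* together, *ORAI2* made up 13.2% ± 4.55 in CONHC and 7.86% ± 3.23 in CONLC (SD, n = 8 each). The share was 14.5% ± 5.89 in GLYHC (SD, n = 8) and 6.84% ± 3.34 in GLYLC (SD, n = 7). These are shares of reads and not of molecules per length, and since *ORAI2* was selected on its change they are given without a test. Single cows ranged from 8.42% to 24.1% in GLYHC and from 4.61% to 13.9% in GLYLC, so the groups overlapped.

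**Figure D2:**
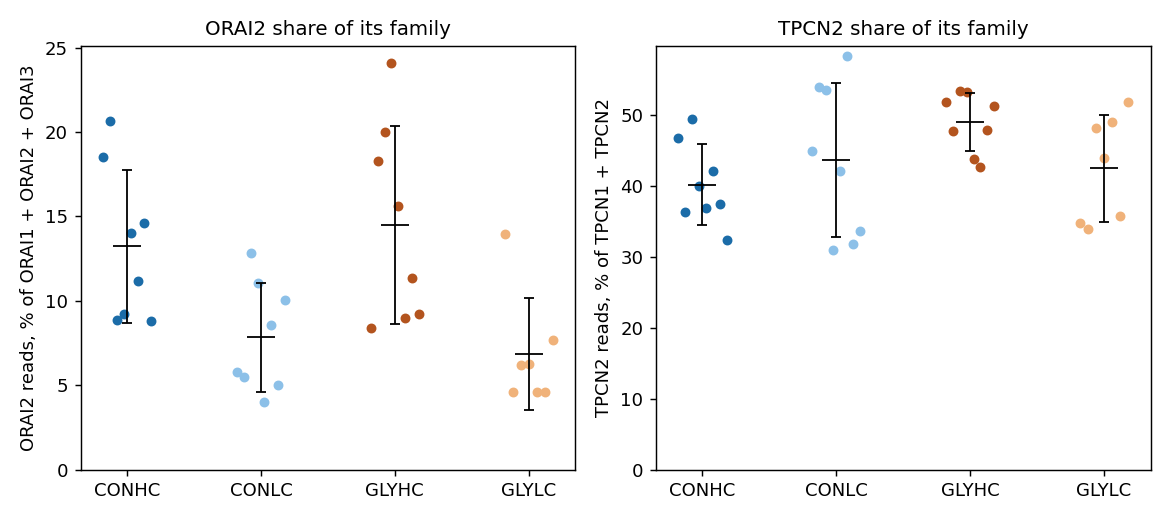
Reads of *ORAI2* as a percent of all *ORAI1*, *ORAI2* and *ORAI3* reads (left) and of *TPCN2* as a percent of all *TPCN1* and *TPCN2* reads (right) in each cow (points), with mean and SD bars for the 4 groups. The *ORAI2* share has means of 13.2% and 14.5% in the HC groups and 7.86% and 6.84% in the LC groups, and the *TPCN2* share is highest in GLYHC with 49.0%.

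*TPCN2* (ENSBTAG00000015183), a cation channel of lysosomes, followed another order. The mean was highest in GLYHC with 354 ± 62.8 normalized counts (SD, n = 8), followed by CONLC with 302 ± 57.2 (SD, n = 8), GLYLC with 289 ± 77.3 (SD, n = 7) and CONHC with 251 ± 30.6 (SD, n = 8). Between GLYHC and CONHC, the pair on which it was selected, the lowest, median and highest values were 291, 332 and 462 against 211, 247 and 302. Of the 8 GLYHC cows 7 lay above the highest CONHC cow, and the log2 fold change was 0.50 (standard error 0.13).

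The LC cows, which had no part in that choice, had no difference of *TPCN2* between GLYLC and CONLC beyond the spread between cows. The values were 221, 273 and 440 in GLYLC (lowest, median, highest) and 231, 300 and 406 in CONLC, and 2 of 7 GLYLC cows exceeded the median of CONLC. The log2 fold change was -0.07 (standard error 0.14, 95% interval -0.34 to 0.21, unadjusted p = 0.632 by edgeR, not called after adjustment). A single cow moved it, to -0.20 without GLYLC cow 544, to -0.0051 without GLYLC cow 912 and to 0.015 without CONLC cow 260.

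Across the concentrate proportions *TPCN2* had opposite signs under the 2 treatments, with a log2 fold change of -0.27 (standard error 0.13) between CONHC and CONLC and of 0.29 (standard error 0.14) between GLYHC and GLYLC. Without GLYLC cow 912 the latter was 0.23. Each of these comparisons contains a group on which the gene was selected, and so does the interaction of 0.56 (standard error 0.19), so no test is given. Averaged over the treatments the log2 fold change between HC and LC was 0.0033 (standard error 0.11).

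*TPCN1* (ENSBTAG00000011102), the related channel of endosomes, differed little between the groups. Its means were 377 ± 62.6 normalized counts in CONHC, 404 ± 120 in CONLC and 365 ± 35.6 in GLYHC (SD, n = 8 each) and 399 ± 113 in GLYLC (SD, n = 7). The spread between cows was wider in the LC groups, with coefficients of variation of 29.7% and 28.2% against 16.6% and 9.74% in the HC groups, a difference that was not tested. The pairwise log2 fold changes lay between -0.13 and -0.02, each with a 95% interval that included 0. The groups made up 1.22% of the variance of *TPCN1* in log2 CPM (reads scaled to library size) over the cows, 34.1% for *TPCN2* and 45.5% for *ORAI2*, and the last 2 values come from genes selected on their differences.

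*MCOLN1* (ENSBTAG00000005592), which encodes the lysosomal channel mucolipin, had a higher median in the HC group under both treatments, and the difference did not pass the threshold. Its lowest, median and highest values were 415, 477 and 617 normalized counts in CONHC against 315, 422 and 539 in CONLC, and 7 of 8 CONHC cows exceeded the median of CONLC. They were 394, 497 and 643 in GLYHC against 334, 400 and 528 in GLYLC, where 7 of 8 GLYHC cows exceeded the median of GLYLC. In the CON cows the log2 fold change was 0.21 (standard error 0.11, edgeR adjusted p = 0.851), and it was 0.27 in the GLY cows (standard error 0.12, edgeR adjusted p = 0.344). Averaged over both treatments it was 0.24 (standard error 0.08, unadjusted p = 0.00619, edgeR adjusted p = 0.169). Leaving out 1 cow moved this average from 0.21 without CONHC cow 208 to 0.27 without CONLC cow 169. In the latter fit the gene was called (edgeR adjusted p = 0.0902). Without GLYLC cow 912, the lowest of its group, the average was 0.21 (edgeR adjusted p = 0.262). The log2 fold change in the GLY cows was then 0.22 (standard error 0.12, edgeR adjusted p = 0.655).

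*ITPR1* (ENSBTAG00000020455), an inositol trisphosphate receptor, was lowest in GLYLC. It had 274, 633 and 754 normalized counts there (lowest, median, highest), against 715, 848 and 1206 in GLYHC. Of the 8 GLYHC cows 7 lay above the highest GLYLC cow, the log2 fold change was 0.59 (standard error 0.18, 95% interval 0.22 to 0.96, unadjusted p = 0.00273), and the edgeR adjusted p of 0.187 missed the threshold. The lowest value was that of GLYLC cow 912, and without this cow the log2 fold change was 0.46 with an edgeR adjusted p of 0.460. In the CON cows the values were 552, 782 and 1172 in CONHC and 457, 742 and 970 in CONLC, a log2 fold change of 0.14 (95% interval -0.22 to 0.49, edgeR adjusted p = 0.989). Between GLYLC and CONLC it was -0.30 (standard error 0.18), and -0.17 without cow 912. The difference between the CFP effects under both treatments was not resolved (interaction 0.46, 95% interval -0.057 to 0.97, edgeR adjusted p = 0.999).

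*ITPR2* (ENSBTAG00000002313), a receptor of the same family that is prominent in hepatocytes, had means between 757 ± 210 normalized counts in GLYLC (SD, n = 7) and 857 ± 253 in GLYHC (SD, n = 8). The pairwise log2 fold changes lay between -0.11 and 0.18 with standard errors of 0.19 to 0.20, and each 95% interval included 0.

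The calcium sensors of the reticulum did not pass the threshold in any pairwise comparison. *STIM1* (ENSBTAG00000013109) had means of 1324 ± 160 normalized counts in CONHC, 1354 ± 176 in CONLC and 1352 ± 147 in GLYHC (SD, n = 8 each) and 1206 ± 206 in GLYLC (SD, n = 7). The lowest value, 761, came from GLYLC cow 912, and the next GLYLC cow had 1196. Its standard errors of 0.10 were the smallest of the 10 genes, and the log2 fold change was -0.03 in the CON cows (95% interval -0.24 to 0.17) and 0.17 in the GLY cows (95% interval -0.05 to 0.38), the latter falling to 0.08 without cow 912. *STIM2* (ENSBTAG00000019353), which responds to smaller losses of store calcium, had 67.5 ± 14.9 in CONHC against 55.5 ± 12.6 in CONLC (SD, n = 8 each), and the CON cows differed by 0.28 on the log2 scale (95% interval -0.04 to 0.60, edgeR adjusted p = 0.866). In the GLY cows it was 0.09 (95% interval -0.24 to 0.41).

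**Figure D3:**
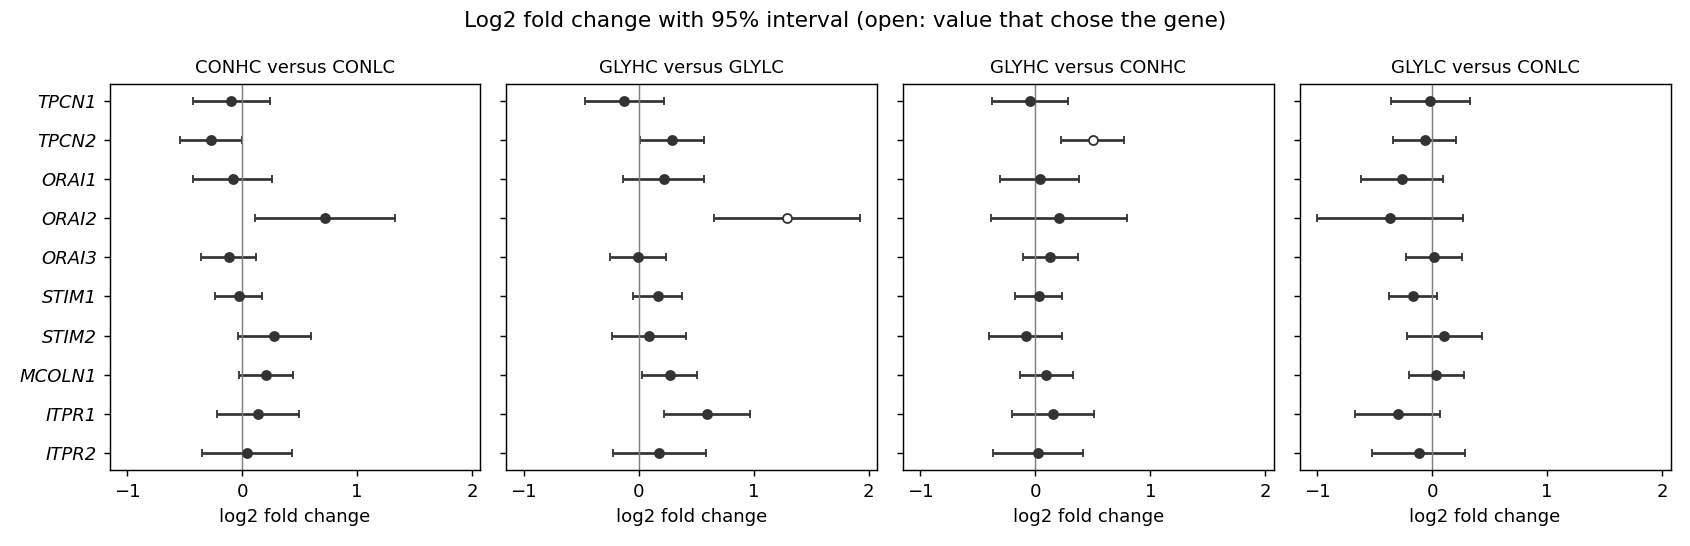
Log2 fold change (horizontal axes) with 95% interval of the 10 channel genes in the 4 pairwise comparisons from the edgeR model, where open circles mark the values on which *ORAI2* (1.29) and *TPCN2* (0.50) were selected. In GLYHC versus GLYLC the intervals of *MCOLN1* and *ITPR1* lie above 0 although neither gene was called. Those of *ORAI2* and *TPCN2* also do, but this comparison holds groups on which they were selected, so nothing is read from them. In GLYLC versus CONLC all 10 intervals include 0. Without GLYLC cow 912 the log2 fold change between GLYHC and GLYLC was 0.22 for *MCOLN1* (standard error 0.12) and 0.46 for *ITPR1* (standard error 0.16).

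Within the groups, some of the channel genes rose and fell together from cow to cow. To describe this, the group mean was subtracted from log2 CPM and Pearson's r was computed over the 31 cows, which share library depth and tissue composition as sources of co-variation. *TPCN1*, *STIM1*, *MCOLN1*, *ITPR1* and *ITPR2*, grouped after their values were seen, correlated positively in all 10 of their pairs, with r between 0.31 and 0.72 and Spearman's rho between 0.29 and 0.66. Without GLYLC cow 912, r was between 0.28 and 0.62. The pair with the highest r was *TPCN1* and *ITPR1* (r = 0.72, rho = 0.66, and r = 0.53 without the 2 cows farthest from the median of *TPCN1*).

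*ORAI2* and *ORAI3* went the other way, with r from -0.45 to -0.22 and from -0.47 to -0.22 with those 5 genes. Without the 2 farthest cows these ranges were -0.37 to -0.073 and -0.51 to -0.11. *ORAI1* and *STIM2* were also mostly negative with those 5 genes, each with 1 positive r. Their r ranged from -0.44 to 0.047 and from -0.24 to 0.036. Some marker lists varied with the channel genes. Mean log2 CPM of the 6 intestinal epithelium markers, the list in which GLYLC cow 912 stood apart, had r = -0.68 with *STIM1*, -0.59 with *ITPR1* and -0.54 with *TPCN1*, and -0.40, -0.23 and -0.39 without the 2 cows farthest from the median of the markers. That of 6 neutrophil markers had r = -0.58 with *STIM1*, -0.44 with *ITPR1* and 0.45 with *ORAI3*, and -0.48, -0.47 and 0.46 without the 2 farthest cows. That of the 8 hepatocyte markers had r = 0.49 with *ITPR1* and 0.44 with *STIM1*, which fell to 0.28 and 0.17 without the 2 farthest cows. These values were picked as large ones over all lists and genes, and are inflated by that choice. Others of similar size were r = 0.49 for B cell markers with *ORAI1* and 0.48 for dendritic cell markers with *ORAI3*. NK and cytotoxic cell markers had r = -0.48 with *STIM1*. Without the 2 farthest cows these were 0.42, 0.38 and -0.40. The part of cell composition in all these values was not tested. *TPCN2* had r between -0.10 and 0.23 to the other 9 genes, and *ORAI1*, *ORAI2* and *ORAI3* correlated weakly with each other (r between -0.06 and 0.27).

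**Figure D4:**
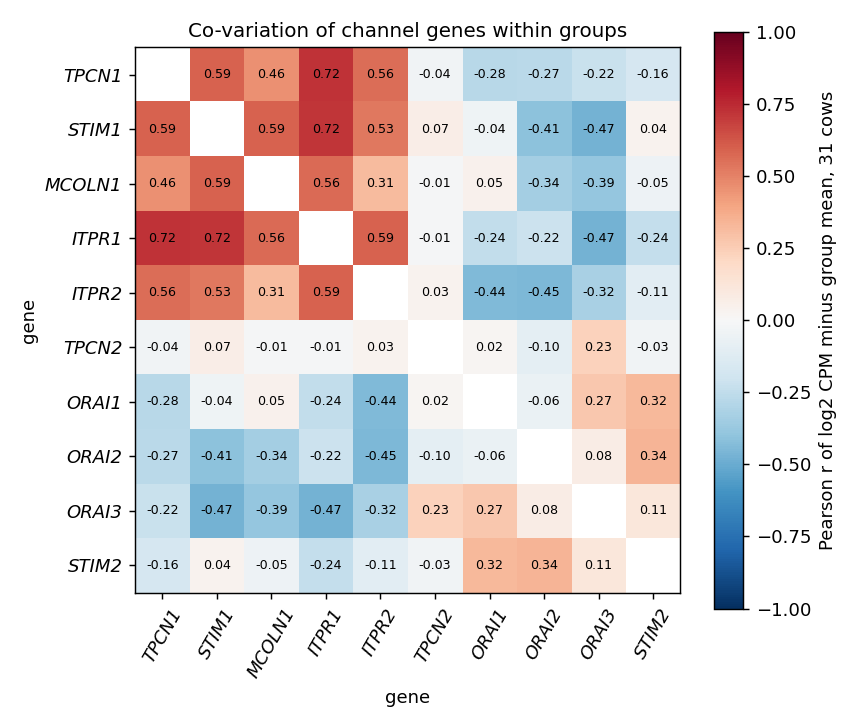
Pearson's r over 31 cows between the 10 channel genes in log2 CPM after subtraction of the group mean (colour scale from -1 to 1, values in the cells). The block of *TPCN1*, *STIM1*, *MCOLN1*, *ITPR1* and *ITPR2* holds values from 0.31 to 0.72, and the row of *TPCN2* holds values from -0.10 to 0.23.

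Among 11215 genes with a symbol and a mean of at least 20 reads, those most like *ORAI2* within the groups were *ACOT9* (r = 0.73), *CLDN4* (r = 0.67), *LY96* (r = 0.67), *AKIRIN2* (r = 0.63) and *CNN3* (r = 0.63), over 31 cows. *ACOT9* encodes a mitochondrial acyl-CoA thioesterase, *CLDN4* a tight junction protein, *LY96* the endotoxin co-receptor MD-2, and *CNN3* a calponin. Without the 2 cows farthest from the median of *ORAI2*, r was between 0.55 and 0.71 for these 5 genes. The genes most like *TPCN2* were *NEFH* (r = 0.63), *SHTN1* (r = 0.61), *IFT27* (r = 0.60), *PGGHG* (r = 0.60) and *BLA-DQB* (r = 0.59). *NEFH* encodes a neurofilament chain, *IFT27* a subunit of intraflagellar transport and *BLA-DQB* a class II antigen of a multigene family, whose reads may be split between copies. The value of *BLA-DQB* fell to 0.31 without the 2 cows farthest from the median of *TPCN2*. As the highest of many values, such correlations are inflated by their selection.

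Beside the 10 channels, 128 symbols for other parts of calcium handling were looked up, of which 118 genes were tested. Of these, 0 were called by edgeR in the pairwise comparisons. Averaged over both treatments, 2 of 118 were called between HC and LC, both higher in HC, beside 1.45% of all genes tested. They include *PLCD4*, which the paper had already reported as induced in HC groups of these cows, so nothing is read from their number. The unadjusted p was under 0.05 for 12 that were higher and 9 that were lower in HC, together with 13.7% of all genes tested, and the median log2 fold change was -0.00 against -0.01 over all genes. Of the 10 channel genes 1 met the call threshold there, *ORAI2*, which was selected on cows in this comparison, so nothing is read from its number. For GLY against CON over both proportions 0 of 118 and 0 of the 10 channel genes were called by edgeR, with an unadjusted p under 0.05 for 4 and 1 of them and 3.92% of all genes, where the 1 is *TPCN2*, selected on cows in this comparison, and nothing is read from it. DESeq2 called 0 of the 10.

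*LAMP1* (ENSBTAG00000010242), an abundant protein of the lysosomal membrane, had 16981 ± 1969 normalized counts in CONHC and 14230 ± 1506 in CONLC (SD, n = 8 each), and 17522 ± 1340 in GLYHC (SD, n = 8) and 13968 ± 1776 in GLYLC (SD, n = 7). It rose by a log2 fold change of 0.29 with HC over both treatments (standard error 0.06, edgeR adjusted p = 0.0275). In the CON cows alone the log2 fold change was 0.26 (edgeR adjusted p = 0.592) and 0.33 in the GLY cows alone (edgeR adjusted p = 0.115). Without GLYLC cow 912 the latter was 0.28 (edgeR adjusted p = 0.408). The value over both treatments was then 0.27 and still called (edgeR adjusted p = 0.0397). *PLCD4* (ENSBTAG00000003809), a phospholipase C that forms inositol trisphosphate, was the other called gene with 1.06 (standard error 0.20, edgeR adjusted p = 0.0275). The paper had already listed *PLCD4*, beside *ORAI2*, among the genes most induced in the HC groups of these cows, so nothing is read from its call. The CON values of *PLCD4* ranged over 448, 648 and 1360 normalized counts in CONHC (lowest, median, highest) and 221, 327 and 509 in CONLC. The GLY values were 269, 656 and 865 in GLYHC and 92.0, 297 and 584 in GLYLC, so the groups overlapped under both treatments. In the GLY cows the log2 fold change was 0.98 (edgeR adjusted p = 0.181), and 0.81 without GLYLC cow 912 (edgeR adjusted p = 0.439). Without that cow the value over both treatments was 0.99 and still called (edgeR adjusted p = 0.0168).

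By group, 4 of 15 tested genes of endolysosomal calcium had an unadjusted p under 0.05 and were higher in HC over both treatments, and 1 was lower. The numbers were 1 higher and 2 lower of 16 regulators of store-operated entry, 1 and 1 of 17 genes of reticulum release and uptake, 1 and 2 of 12 of mitochondrial uptake and 2 and 1 of 8 of plasma membrane extrusion. They were 2 and 1 of 18 second messenger enzymes, 0 and 1 of 11 receptors, and 1 and 0 of 21 genes of calmodulin, calcineurin and NFAT. All genes tested had 5.88% higher and 7.81% lower at that p. Outside *LAMP1* and *PLCD4*, 0 genes of these groups were called.

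*MCOLN2* (ENSBTAG00000046773), a mucolipin known from immune cells, varied widely between cows. It had 31.7, 91.6 and 126 normalized counts in GLYHC (lowest, median, highest) and 7.30, 14.1 and 116 in GLYLC, where cow 147 had 116 and the next cow 22.9. The log2 fold change of 1.58 between these groups (standard error 0.57, edgeR adjusted p = 0.248) was not called, and without cow 147 it was 2.58 and called (edgeR adjusted p = 0.0396). Cow 147 is the highest of the lower group, so leaving it out widens the difference. The log2 fold change was 1.42 without GLYLC cow 102, and 1.51 without GLYLC cow 912 (edgeR adjusted p = 0.518). In the CON cows the values of 21.4, 69.1 and 158 in CONHC and 9.83, 63.8 and 204 in CONLC overlapped fully.

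Genes that were lower in GLYHC than in GLYLC at an unadjusted p under 0.01 included *MRVI1*, which encodes a partner of the inositol trisphosphate receptor, *ATP2B4*, a plasma membrane calcium pump, *ATP2C2*, a Golgi pump, *LSM12*, a binding protein for the messenger that opens TPC channels, and *MICU3*, a regulator of mitochondrial uptake. For *MRVI1* the log2 fold change was -1.58 (standard error 0.40, unadjusted p = 0.000368 by edgeR, not called after adjustment), with 264 normalized counts in GLYLC cow 912 and at most 95.5 in another GLYLC cow, and it was -0.89 without that cow. *ATP2B4* went from -2.08 to -0.58 and *ATP2C2* from -0.50 to -0.29 when cow 912 was left out. *LSM12* went from -0.22 to -0.18 and *MICU3* from -0.30 to -0.32. *TMEM178A*, described as a regulator of store-operated entry, was higher in GLYLC than in CONLC at an unadjusted p under 0.01 (log2 fold change 1.84, 0.62 without cow 912), with 44.1 normalized counts in cow 912 and 8.25 or fewer elsewhere. Of these 6 genes 0 were called by edgeR, with *MRVI1* at the edge of the threshold.

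Some markers of macrophages were higher with HC as well. The summed level of 10 macrophage markers ranged from 11774 to 32827 normalized counts in CONHC (median 23001), from 14608 to 27208 in CONLC (median 18654), from 13864 to 34861 in GLYHC (median 22976) and from 14328 to 27591 in GLYLC (median 17716). Of the 10 markers 9 had a positive log2 fold change for HC over both treatments, 7 with an unadjusted p under 0.05, and 2 were called. Over all genes tested, 7318 of 15916 had a positive log2 fold change in this comparison. By edgeR 5.88% of all genes were higher in HC at an unadjusted p under 0.05, and 1.45% were called in either direction. None of them was at 0 in all cows. Within the groups their mean log2 CPM had r = 0.32 with *ORAI2* (rho = 0.28, and 0.10 without the 2 cows farthest from the median of the markers), 0.33 with *TPCN2* (rho = 0.36, and 0.60 without those 2 cows) and 0.043 with *MCOLN1* (rho = -0.031, and 0.094 without those 2 cows). Of 9 T cell markers 8 were higher in HC, of 6 B cell markers 2, of 7 genes of NK and cytotoxic cells 5, of 5 dendritic cell markers 4, of 6 neutrophil markers 3, of 3 platelet markers 1 and of 8 endothelial markers 1, and 0 genes of these lists were called. Of 3 erythroid markers 0, of 4 bile duct markers 2 and of 8 hepatocyte markers 6 were higher in HC, with 0 called. Of 6 stellate cell and fibroblast markers 0 were higher and 1 was called as lower, and of 6 intestinal markers 1 was higher and 4 were called as lower, lists in which CONLC cow 103 and GLYLC cow 912 stood apart. The part of cell composition in the values of *ORAI2*, *MCOLN1* and *LAMP1* was not tested.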

How the data were processed

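The authors trimmed paired reads from a stranded mRNA kit with Trim Galore, aligned them with HISAT2 2.1.0 to the bovine assembly UMD3.1, used HTSeq 0.8.0 to count those that mapped to 1 place, and deposited the raw counts. Whether counting used the strand is not given in the sources used here. In the RefSeq table for ARS-UCD2.0, *ORAI2* overlaps a protein-coding locus, *ORAI3* a long non-coding RNA, *ITPR1* a long non-coding RNA and a miRNA, and *ORAI1* and *ITPR2* overlap tRNAs, so their reads may include others. Coordinates are not given because the builds differ. A deposited table of normalized values was not used.

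Columns were mapped to cows by their titles. Counts were tested with edgeR 4.0.16 in R 4.3.3 (TMM, 1 model of the 4 groups over all 31 cows, or additive models of CFP and treatment) for the 15916 genes with at least 20 reads in all. Standard errors were derived from each log2 fold change and its F statistic. Log2 CPM used a prior count of 2. The steps were tested on simulated counts. Alternatives were RLE factors, no filter, filterByExpr (minimum of 10 reads), DESeq2 1.42.0, fits of only the compared groups and each cow left out. Python 3.11.15 with scipy 1.17.1 and matplotlib 3.10.9 was used for correlations and figures.

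The members and lists were chosen with earlier results of these data known. Named were the 10 channel genes, calcium list genes called in any comparison or with an unadjusted p under 0.01 in a pairwise one, and the 5 genes with the highest r to *ORAI2* and *TPCN2*. Cell type lists are given by their counts.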

Additional observations from a re-analysis of the deposited data

Results flagged for a closer look

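Among 40 sets of values (10 channel genes in 4 groups), 5 had a cow whose gap to its neighbour was large for the range of its group by Dixon's criterion at 95%, where chance gives about 1 in 20 sets. GLYHC cow 152 had 70.8 normalized counts of *ORAI2*, with 42.7 in the next cow. GLYLC cow 912 had 761 of *STIM1*, with 1196 in the next cow, and 274 of *ITPR1*, with 586 in the next cow. CONHC cow 208 had 617 of *MCOLN1*, with 479 in the next cow. CONHC cow 7 had 1316 of *ITPR2*, with 919 in the next cow.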

How the results depend on the processing

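No paired analysis was possible because the cow numbers of the groups are all different. The number of channel genes called between GLYHC and GLYLC was 0 in the edgeR model and 1 (*ORAI2*) with RLE factors, with DESeq2 on all cows (1) and with DESeq2 on only the 2 compared groups (1), and from 0 to 1 when a cow was left out. Between GLYHC and CONHC it was 0, and 1 (*TPCN2*) with DESeq2 on only the 2 compared groups. For HC versus LC over both treatments it was 1, and from 1 to 2 when a cow was left out. The other counts of called channel genes stayed at 0 under the alternatives. Without any filter, with filterByExpr, with RLE factors, with DESeq2 and in fits of only the compared groups, all pairwise log2 fold changes of the 10 genes kept their sign.

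Leaving out 1 cow turned the sign of small values. For *TPCN2* between GLYLC and CONLC the range was -0.20 to 0.015. The ranges were -0.068 to 0.0080 for *STIM1* and -0.077 to 0.12 for *ITPR2* between CONHC and CONLC, and -0.071 to 0.048 for *ORAI3* between GLYHC and GLYLC. Between GLYHC and CONHC they were -0.10 to 0.014 for *TPCN1*, -0.035 to 0.12 for *ORAI1*, -0.0094 to 0.060 for *STIM1* and -0.066 to 0.15 for *ITPR2*. Between GLYLC and CONLC they were -0.10 to 0.10 for *TPCN1*, -0.024 to 0.076 for *ORAI3* and -0.024 to 0.10 for *MCOLN1*.

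Over the whole table, edgeR called 0 genes between CONHC and CONLC, and DESeq2 called 27 on all cows and 81 on only the 2 groups. Between GLYHC and GLYLC the number was 32, and 66 with RLE factors, 11 with filterByExpr, 0 with edgeR on only the 2 groups, and 143 and 87 with DESeq2. Between GLYLC and CONLC it was 10, and 0 to 4 with filterByExpr, DESeq2 or only the 2 groups. Between GLYHC and CONHC it was 0, and 5 with DESeq2 on only the 2 groups. For HC versus LC it was 231, and 134 without a filter and 434 with DESeq2. DESeq2 called *PLCD4* between CONHC and CONLC on all cows (adjusted p = 0.0560) and on only the 2 groups (DESeq2 adjusted p = 0.00221), and between GLYHC and GLYLC on all cows (DESeq2 adjusted p = 0.0918). It called *LAMP1* between GLYHC and GLYLC on all cows (DESeq2 adjusted p = 0.0390) and on only the 2 groups (DESeq2 adjusted p = 0.0486). These DESeq2 fits include GLYLC cow 912, and DESeq2 was not run without it. *MRVI1* was called between GLYHC and GLYLC with RLE factors (edgeR adjusted p = 0.0987), by DESeq2 on all cows (adjusted p = 0.0381) and when any of several other cows was left out, and not without cow 912. *ORAI2* had a median of 21 reads per cow, and the part of counting error in its spread was not tested.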
